A study of Mus musculus with 6 samples.

Results

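Myc and 39 genes of ribosome biogenesis were followed in RAW264.7 macrophages, a mouse macrophage-like cell line, across 6 conditions of polarization and gamma-irradiation. The members were taken by gene symbol from the gene count tables, and all 40 were found among the 24062 genes listed there. The question was whether the transcripts that build ribosomes moved with the Myc transcript. They did not in M1 macrophages: Myc rose 1.45-fold with M1 polarization, a call that depended on the scaling of the libraries. In the same comparison 35 of the 39 ribosome biogenesis genes fell, beside 24.3% of all genes tested. No member passed the test after irradiation or after M2 polarization, where only 0.475% and 0.19% of all genes did.

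Ribosomes are assembled in the nucleolus. RNA polymerase I (Pol I) transcribes the ribosomal DNA (rDNA) into a long precursor, small nucleolar ribonucleoproteins (snoRNPs) modify and cut it, and assembly factors fold it with ribosomal proteins into a small and a large subunit. Myc is a transcription factor that binds DNA with its partner Max, prefers the motif CACGTG (an E-box), and is well known to raise the transcription of genes for Pol I, snoRNP proteins and assembly factors in growing cells. Mycn is its close paralog, and proteins of the Mxd family compete for Max and repress the same kind of promoter.

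M0 was the unpolarized state. M1 cells had received 100 ng/mL lipopolysaccharide (LPS) with 20 ng/mL interferon-γ (IFN-γ) for 24 h, and M2 cells 20 ng/mL interleukin-4 (IL-4) for 24 h. RM0, RM1 and RM2 were the same states given 10 Gy of gamma rays and harvested 24 h later, and whether the non-irradiated cells were held for that extra time was not given in the sources used here, so time in culture and irradiation cannot be told apart. Each condition was 1 library pooled from several wells of 1 cell line, although the labels name bone marrow as the tissue.

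The 6 libraries held 17894937 to 18870516 reads assigned to genes, and the least abundant member still had 129 reads in its lowest library. All 10 macrophage markers had reads, but Mrc1 had few. It had 10, 6, 5 and 12 in M0, M2, RM0 and RM2, and 50 in M1 and 26 in RM1. The T cell and epithelial markers never exceeded 3 reads, the B cell markers summed to at most 4 and the endothelial markers to 14 to 54. The 4 fibroblast markers together had 120 to 185 reads in the M0 and M2 states and 631 in M1 and 730 in RM1, nearly all of them from Dcn, with Col1a2 at 0 in all 6 libraries. The part of that rise in the results below was not tested. In pooled cells, less RNA per cell and fewer cells that make it cannot be told apart.

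Promoter sequences, from 250 bases before to 50 after the annotated start in RefSeq, were at hand for 34 of the 40 members. Those of Myc, Npm1, Fbl, Rrp12, Bop1 and Rrs1 were not in the table. The motif CACGTG, which reads the same on both strands, stood in the window of 8 members: Ltv1, Mybbp1a, Nop2, Pes1, Tsr1, Utp18, Utp20 and Wdr43. That is 23.5% of the 34 genes, and 21.1% of their 38 promoters, beside 7.15% of all 32851 promoters and 10.1% of the promoters of genes with enough reads for the test. A match describes these letters only and was not a measurement of binding. The windows of 4 of these genes, the most abundant holder of each role group, are shown because they carry the motif that Myc prefers, here in capitals, in build GRCm38.p6 on the plus strand: Mybbp1a at chr11:72441077-72441376, Nop2 at chr6:125131633-125131932, Pes1 at chr11:3963725-3964024 and Wdr43 at chr17:71615965-71616264.
Mybbp1a: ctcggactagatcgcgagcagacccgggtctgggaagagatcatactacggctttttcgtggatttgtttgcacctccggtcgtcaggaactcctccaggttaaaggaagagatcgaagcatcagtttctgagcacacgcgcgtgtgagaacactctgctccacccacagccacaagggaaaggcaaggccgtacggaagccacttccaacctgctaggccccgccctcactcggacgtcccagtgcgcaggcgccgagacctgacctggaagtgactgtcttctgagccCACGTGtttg
Nop2: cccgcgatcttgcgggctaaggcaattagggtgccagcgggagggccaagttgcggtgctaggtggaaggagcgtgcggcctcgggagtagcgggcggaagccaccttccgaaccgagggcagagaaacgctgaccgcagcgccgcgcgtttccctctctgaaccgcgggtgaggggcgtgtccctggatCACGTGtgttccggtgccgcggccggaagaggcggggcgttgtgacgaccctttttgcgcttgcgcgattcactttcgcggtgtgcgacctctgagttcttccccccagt
Pes1: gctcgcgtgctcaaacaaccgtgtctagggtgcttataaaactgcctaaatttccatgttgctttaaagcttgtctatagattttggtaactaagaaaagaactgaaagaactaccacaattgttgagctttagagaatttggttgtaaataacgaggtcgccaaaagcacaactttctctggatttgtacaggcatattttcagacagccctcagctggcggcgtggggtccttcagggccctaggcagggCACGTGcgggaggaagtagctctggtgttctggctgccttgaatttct
Wdr43: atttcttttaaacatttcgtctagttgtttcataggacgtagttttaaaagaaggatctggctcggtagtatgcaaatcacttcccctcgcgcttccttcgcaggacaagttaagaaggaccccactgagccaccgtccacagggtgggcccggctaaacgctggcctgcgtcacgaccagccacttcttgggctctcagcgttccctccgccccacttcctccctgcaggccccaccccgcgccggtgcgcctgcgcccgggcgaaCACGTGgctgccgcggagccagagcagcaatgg

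Counted from the annotated start on which each window is placed, which in Wdr43 is a transcript start inside the listed RefSeq gene, the motif began 2 bases downstream in Pes1, 17 in Wdr43 and 40 in Mybbp1a, and upstream in Nop2, at an offset of -60. All 4 of these genes fell with M1 polarization, as described below. Over the members with a promoter sequence, the median log2 difference with M1 polarization was -1.03 in the 8 with the motif and -0.98 in the 26 without it.

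Myc was present at 951 reads in M0, 1023 in M2, 977 in RM0 and 982 in RM2, against 1086 in M1 and 1146 in RM1. To compare libraries, counts were divided by library size scaled by trimmed mean of M-values (TMM), a scaling that allows for differences in library composition, and are given as scaled CPM. On that scale Myc was at 47.9 in M0, 50.4 in M2, 49.9 in RM0 and 49.5 in RM2, and at 73.5 in M1 and 68.7 in RM1. The M1 and RM1 libraries therefore stood above the other 4, which lay close together. The M1/M0 log2 fold change was 0.61, with an exact 95% interval of counting error from 0.49 to 0.74, and the RM1/RM0 value was 0.46 (0.34 to 0.59).

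With 1 library per condition no pair of libraries has a test. An additive model across all 6 libraries (edgeR quasi-likelihood, polarization state plus irradiation) gives one, in which the irradiated and non-irradiated libraries of a state stand in for its replicates. Its M1 term for Myc was 0.54 on the log2 scale (standard error, SE, 0.12, edgeR adjusted p = 0.00424, Benjamini-Hochberg over 11574 genes). The call depended on the scaling. With library totals in place of TMM, which lower the median M1/M0 change of all genes to -0.46, the Myc term was 0.19 with an adjusted p of 0.22, and its M1/M0 change was 0.17.

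The 39 ribosome biogenesis genes went the other way. Together they held 95918 reads in M0, 97219 in M2, 83786 in RM0 and 91975 in RM2, but 42600 in M1 and 45066 in RM1. Their share of all assigned reads was 0.526% in M0 and 0.231% in M1, and 0.449% in RM0 and 0.239% in RM1. A ratio within a library needs no scaling between libraries, and by that measure there were 101 reads of the 39 genes for each Myc read in M0, 95.03 in M2, 85.8 in RM0 and 93.7 in RM2, against 39.2 in M1 and 39.3 in RM1. Each of the 39 genes, Npm1 and Noc4l included, had fewer reads per Myc read in both M1 and RM1 than in any of the other 4 libraries, beside 64.0% of all other genes tested; Myc, the divisor, was itself higher there.

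**Figure D1:**
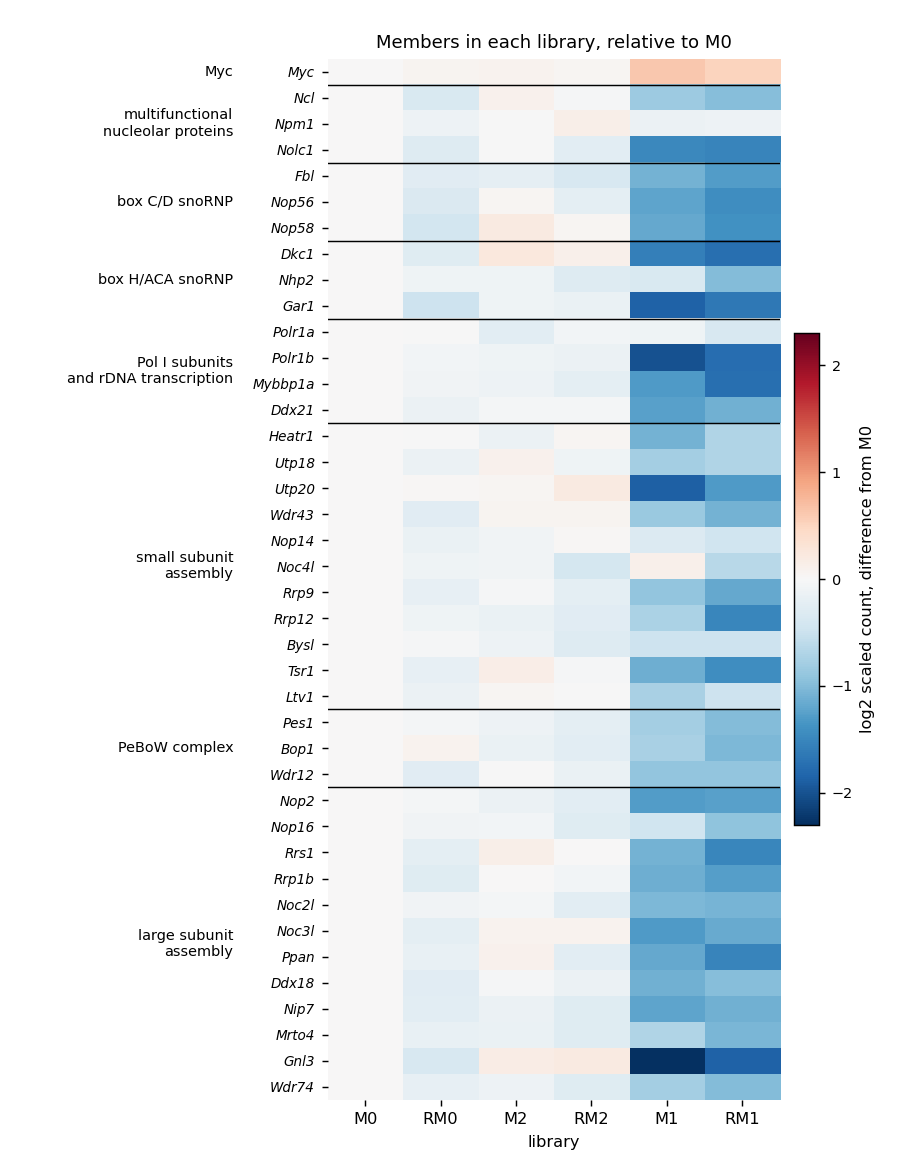
Heat map of the 40 members (rows, grouped by role) in the 6 libraries (columns, 1 per condition); colour is the difference from M0 in log2 scaled CPM. Myc is the red row in M1 and RM1, at 0.61 above M0 in M1, and nearly all other rows are blue in those libraries and pale in RM0, M2 and RM2.

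In scaled counts, 36 of the 39 genes (92.3%) had both M1 and RM1 below the other 4 libraries, beside 32.1% of all genes tested. The lowest library was M1 for 14 genes and RM1 for 25. The highest was M0 for 20 genes, M2 for 12, RM2 for 5 and RM0 for 1, and Noc4l was highest in M1.

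The M1/M0 log2 fold change had a median of -1.08 over the 39 genes, a 2.11-fold lower level, beside -0.03 over all genes tested. At 2-fold or more, 21 of the 39 were lower and 0 higher, where 13.3% of all genes tested were called lower. In the irradiated cells, RM1/RM0 had a median of -0.97, and 15 of the 39 were lower by 2-fold or more against a background of 7.87%. The change was below 0 for 38 of 39 genes in each of the comparisons, beside 51.2% of all genes in M1/M0 and 50.5% in RM1/RM0. For these 38 the interval of counting error also lay below 0, but that share over all genes is not given here. The interval lay below that of Myc for all 39 in each, beside 64.9% of all genes in M1/M0 and 58.0% in RM1/RM0. The exceptions to a lower level were Noc4l in M1/M0, at 0.11 (-0.02 to 0.25), and Npm1 in RM1/RM0, at 0.00 (-0.03 to 0.03).

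In the M1 term of the additive model, 35 of the 39 genes fell and 0 rose. Of all genes tested, 24.3% were called lower and 23.3% higher. The median term over the 39 genes was -1.01. Leaving out each library in turn leaves 1 library in a state. In those fits the M1 term of Myc ran from 0.48 to 0.60, and the set of members called was not the same in each. With library totals 39 of the 39 were called lower, beside 41.0% of all genes. The plot of levels by library shows the split between Myc and the other members.

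**Figure D2:**
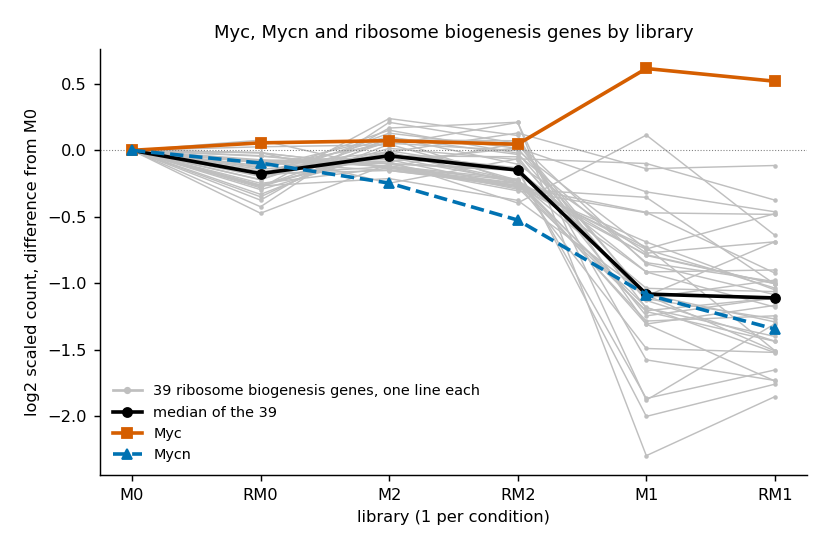
Difference from M0 in log2 scaled CPM (y axis) in each library (x axis, 1 library per condition) for the 39 ribosome biogenesis genes (grey), their median (black), Myc (orange) and Mycn (blue, dashed). The median is at -1.08 in M1, where Myc is at 0.61 and Mycn at -1.08; lines join libraries for reading only.

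Among the abundant multifunctional nucleolar proteins the genes differed. Nolc1, a chaperone of snoRNPs, had 2011 reads in M0, 2037 in M2, 1619 in RM0 and 1693 in RM2, against 534 in M1 and 590 in RM1, and its M1 term was -1.36 (SE 0.13, edgeR adjusted p = 2.08e-05). Ncl, which encodes nucleolin, an RNA-binding protein of the early precursor, also fell, by 0.74 on the log2 scale. Npm1, which encodes nucleophosmin, a histone and ribosome chaperone, had the most reads of any member, with 17670 in M0, 17911 in M2, 16113 in RM0 and 19345 in RM2 and 11970 in M1 and 13728 in RM1. After scaling its M1 term was -0.07 (edgeR adjusted p = 0.709), beside the falls of Nolc1 and Ncl; with library totals it was -0.42 and passed the test. Of its 100-base windows, 22.1% are shared with other genes, and how such reads were assigned was not given in the sources used here.

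The core proteins of the box C/D snoRNP, which places methyl groups on ribosomal RNA, fell together. Fbl, the methyltransferase fibrillarin, had 2407 reads in M0, 2125 in M2, 1978 in RM0 and 1856 in RM2, against 849 in M1 and 828 in RM1. Nop56 had 3241, 3421, 2545 and 2773 reads in M0, M2, RM0 and RM2, against 1043 in M1 and 1007 in RM1. Nop58 had 2913, 3449, 2145 and 3021 reads in the same order, against 955 and 929. For each of the 3 genes the M1 and RM1 libraries were nearly equal and lay well below the other 4, and the M1 terms were close, at -1.05, -1.16 and -1.08. Of the 100-base windows, 57.2% in Fbl and 32.0% in Nop56 are shared with other genes. The positions listed beside the counts cover 23.4% of the RefSeq gene in Nop56 and 22.3% in Nop58.

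The box H/ACA snoRNP, which converts uridine to pseudouridine, was less even. Dkc1, the pseudouridine synthase dyskerin, had 667 reads in M0, 805 in M2, 542 in RM0 and 721 in RM2, against 167 in M1 and 169 in RM1, with an M1 term of -1.51 (SE 0.14). Gar1, a core protein of the same particle, had 840, 801, 598 and 756 reads in M0, M2, RM0 and RM2, against 172 in M1 and 225 in RM1, with a term of -1.52 (SE 0.17). Nhp2, another core protein and the most abundant of the group, had 1299, 1241, 1203 and 1061 reads, against 758 in M1 and 544 in RM1. All 3 genes fell, but Nhp2 by less, with a term of -0.62 (SE 0.15). The number of Nhp2 reads for each Dkc1 read was accordingly 1.95 in M0, 1.54 in M2, 2.22 in RM0 and 1.47 in RM2, and 4.54 in M1 and 3.22 in RM1. Nhp2 reads for each Gar1 read numbered 1.55, 1.55, 2.01 and 1.40 in M0, M2, RM0 and RM2, and 4.41 in M1 but 2.42 in RM1, little above RM0.

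The same kind of split was seen within Pol I itself. Polr1b, 1 of the pair of subunits that form the catalytic core, had 692 reads in M0, 660 in M2, 651 in RM0 and 630 in RM2, against 129 in M1 and 172 in RM1. Its M1 term of -1.84 (SE 0.15, edgeR adjusted p = 6.79e-06) was a 3.57-fold lower level. Polr1a, the partner subunit, had 2304, 1986, 2252 and 2207 reads in M0, M2, RM0 and RM2, and 1604 in M1 and 1495 in RM1. Its term of -0.22 (SE 0.13) did not pass the test (edgeR adjusted p = 0.191). With library totals the term was -0.57 and passed. There were 3.33 Polr1a reads for each Polr1b read in M0, 3.01 in M2, 3.46 in RM0 and 3.50 in RM2, but 12.4 in M1 and 8.69 in RM1.

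Mybbp1a and Ddx21, factors that act on rDNA transcription and early processing, both fell. Mybbp1a had 4253 reads in M0, 4008 in M2, 3978 in RM0 and 3660 in RM2, against 1282 in M1 and 1075 in RM1, with an M1 term of -1.48. Ddx21, an RNA helicase and the most abundant of the Pol I group, had 5990, 5956, 5357 and 5793 reads in M0, M2, RM0 and RM2, against 1885 in M1 and 2334 in RM1, with a term of -1.10 or a 2.15-fold lower level.

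Of the 11 small subunit assembly factors, 9 fell with M1 polarization, with a median term of -0.84. Utp20 and Heatr1 are large scaffold proteins of the small subunit processome, the particle that forms on the nascent precursor. Utp20 had 1104 reads in M0, 1162 in M2, 1111 in RM0 and 1277 in RM2, against 224 in M1 and 376 in RM1, and its term was -1.59 (SE 0.15). Heatr1 had 2120, 1987, 2069 and 2200 reads, against 740 in M1 and 1107 in RM1, with a term of -0.88. For both genes the M1 library was the lowest of all 6.

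Tsr1 and Rrp12 act later, in maturation and export of the small subunit. Tsr1 had 1771 reads in M0, 2012 in M2, 1543 in RM0 and 1745 in RM2, against 604 in M1 and 551 in RM1, and its M1 term was -1.19. In the annotation, 32.3% of its exon bases overlap another gene, and use of strand in counting was not given in the sources used here. Rrp12 had 844, 777, 781 and 705 reads in M0, M2, RM0 and RM2, against 380 in M1 and 250 in RM1, with a term of -1.05 (SE 0.17). Unlike Utp20 and Heatr1, Rrp12 was lowest in RM1.

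The 2 factors that did not pass the test were Nop14 and Noc4l, whose products bind each other, although both passed it with library totals (terms of -0.66 and -0.56). Nop14, the most abundant of the small subunit factors, had 3272 reads in M0, 3157 in M2, 2899 in RM0 and 3315 in RM2, and 1965 in M1 and 1997 in RM1, with a term of -0.31 (SE 0.12, edgeR adjusted p = 0.0601). Noc4l had 1063, 1025, 986 and 808 reads, and 858 in M1 and 574 in RM1, with a term of -0.21 (SE 0.16, edgeR adjusted p = 0.294). The other small subunit factors, Rrp9, Wdr43, Utp18, Ltv1 and Bysl, fell by 0.95, 0.84, 0.66, 0.54 and 0.47 on the log2 scale.

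Pes1, Bop1 and Wdr12 form the PeBoW complex, which large subunit maturation requires, and all 3 fell. Pes1 had 3179 reads in M0, 2981 in M2, 3047 in RM0 and 2714 in RM2, against 1371 in M1 and 1334 in RM1. Bop1 had 1650, 1527, 1719 and 1387 reads, against 734 in M1 and 677 in RM1. Their terms were -0.87 and -0.93, and that of Wdr12 was -0.77. In M1/M0 Pes1, Bop1 and Wdr12 were at -0.79, -0.74 and -0.91, and in RM1/RM0 at -0.96, -1.11 and -0.63. The terms were thus similar, but the order of the 3 genes differed between these pairs.

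All 12 large subunit assembly factors fell, with a median term of -1.04 and a range from -1.88 to -0.65. Gnl3, which encodes nucleostemin, a nucleolar GTP-binding protein known from proliferating and stem cells, had 1270 reads in M0, 1459 in M2, 968 in RM0 and 1471 in RM2, against 193 in M1 and 296 in RM1. Its M1/M0 change of -2.28 (-2.52 to -2.08) was a 4.87-fold lower level, and its term of -1.88 (SE 0.18, edgeR adjusted p = 2.18e-05) exceeded that of every other member in size, although Polr1b was within its SE.

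Nop2, an RNA methyltransferase, had 2239 reads in M0, 2093 in M2, 2152 in RM0 and 1889 in RM2, against 686 in M1 and 795 in RM1, with a term of -1.24. Ddx18, an RNA helicase, had 2548, 2557, 2100 and 2327 reads, against 881 in M1 and 1090 in RM1, with a term of -0.91. Noc2l had 2207, 2176, 2063 and 1878 reads, against 802 in M1 and 889 in RM1, with a term of -1.01. These 3 most abundant genes of the group kept M1 and RM1 close together and far below the other libraries. Of the Noc2l exon bases, 20.9% overlap a neighbouring gene, and 39.8% of Ddx18 windows are shared with other genes. The listed positions cover only 4.61% of the RefSeq gene in Noc2l.

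The less abundant large subunit factors moved alike. Rrs1, needed for assembly of the central part of the large subunit, had 1140 reads in M0, 1275 in M2, 966 in RM0 and 1153 in RM2, against 400 in M1 and 337 in RM1. Nip7 had 1296, 1209, 1078 and 1067 reads, against 419 in M1 and 505 in RM1. Rrp1b had 750, 775, 613 and 715 reads, against 258 in M1 and 262 in RM1. In these 3 genes both M1 and RM1 lay below the other 4 libraries, as they did in scaled counts for 32.1% of all genes tested. Noc3l, the partner of Noc2l, had 600, 648, 509 and 631 reads, against 181 in M1 and 225 in RM1. Ppan had 498, 543, 436 and 420 reads, against 164 in M1 and 146 in RM1. The terms of these 5 genes lay between -1.26 for Ppan and -1.03 for Nip7, and Wdr74, Mrto4 and Nop16 fell by 0.80, 0.78 and 0.65.

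**Figure D3:**
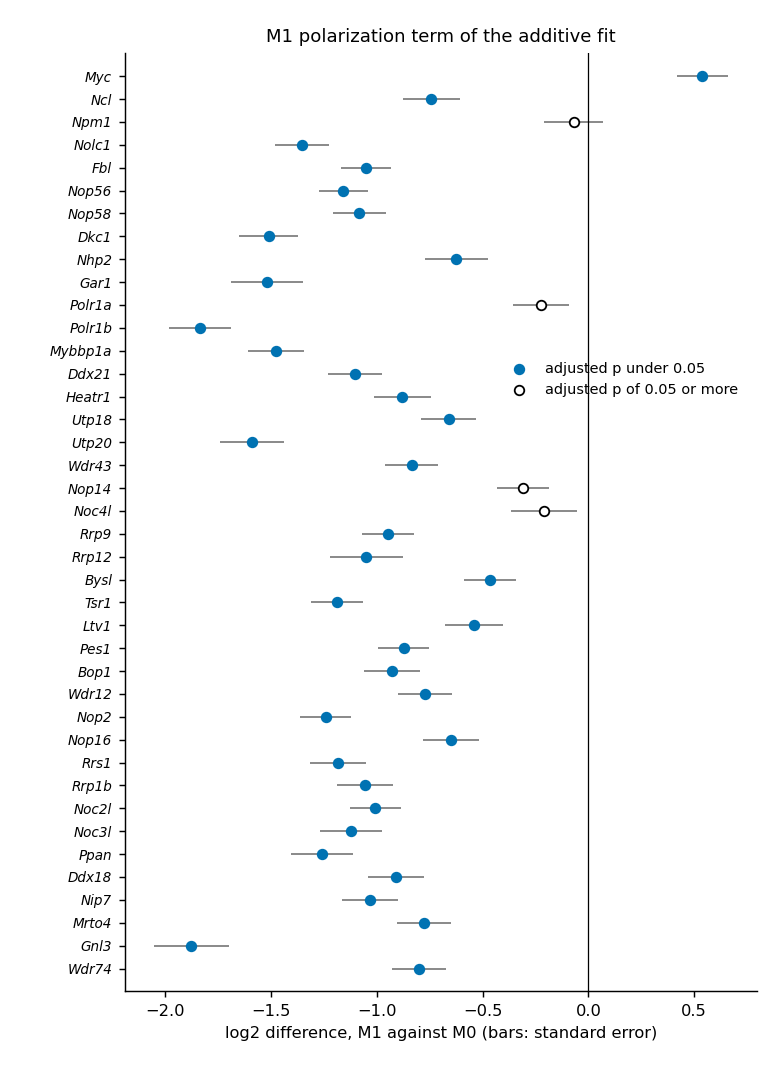
M1 term of the additive model for each member (x axis, log2 difference between M1 and M0; y axis, genes by role), with bars of 1 standard error. Filled points have an adjusted p under 0.05; Myc is the point to the right of 0, and the open points are Npm1, Polr1a, Nop14 and Noc4l.

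Changes after irradiation were smaller. In the irradiation term of the additive model 0 of the 40 members passed the test, where 0.475% of all genes were called in either direction. For Myc the term was -0.02 (SE 0.10, edgeR adjusted p = 0.929). At an unadjusted p under 0.05 there were 11 of the 39 genes (28.2%) by edgeR, beside 14.7% of all genes tested. DESeq2 gave 4 of the 39 at that level, beside 9.05% of all genes, and also called 0. The smallest adjusted p was 0.22, for Noc4l, with a term of -0.38 (SE 0.13). Noc4l was called lower without M0 or without RM0, and Nop56 without M1 or without RM1, in each case as the 1 member called. In those fits 2.38%, 2.20%, 2.28% and 2.28% of all genes were called lower (without M0, RM0, M1 and RM1), a share close to that of 1 member in 40.

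No member reached 2-fold in any state, where 1.54% of all genes did in RM0/M0, 5.34% in RM1/M1 and 1.97% in RM2/M2. Most ribosome biogenesis genes had small negative values in M0 and M2 cells: 37 of 39 were below 0 in RM0/M0, with a median of -0.17, and 33 of 39 in RM2/M2, with a median of -0.12. The median of all genes was 0.00 in both. Myc was at 0.06 (-0.07 to 0.19) in RM0/M0, -0.10 (-0.22 to 0.03) in RM1/M1 and -0.03 (-0.15 to 0.10) in RM2/M2, each interval spanning 0; with library totals the RM1/M1 value was 0.05. In RM0/M0 the intervals of 18 of the 39 genes lay below that of Myc and 0 above it, beside 7.96% and 2.70% of all genes. In RM1/M1 there were 5 below and 5 above, beside 14.6% and 24.8% of all genes. In RM2/M2 there were 2 below and 1 above, beside 6.08% and 11.9%. The pairs share no libraries.

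The box C/D genes had negative values in all 3 states. Nop56 was at -0.33, -0.22 and -0.27 in RM0/M0, RM1/M1 and RM2/M2. Fbl was at -0.27, -0.21 and -0.16, and Nop58 at -0.42, -0.21 and -0.16. All 9 of these values were negative with an interval of counting error below 0. Of the 39 genes, 23, 19 and 21 had such an interval in RM0/M0, RM1/M1 and RM2/M2, and the share of all genes is not given here. In the edgeR fit the unadjusted p-values of Fbl, Nop56 and Nop58 were 0.0483, 0.014 and 0.0224. None of them passed the correction (edgeR adjusted p = 0.334, 0.222 and 0.261).

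Proliferation markers had lower values after irradiation in each state. The 6 proliferation markers summed to 345 scaled CPM in M0 and 219 in RM0, 383 in M2 and 269 in RM2, and 220 in M1 and 174 in RM1. Their median irradiation term was -0.60, with 6 of 6 at an unadjusted p under 0.05 and 1 called. Their median M1 term was -0.37, with 3 of 6 lower. The part of proliferation in the values of the members was not tested.

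**Figure D4:**
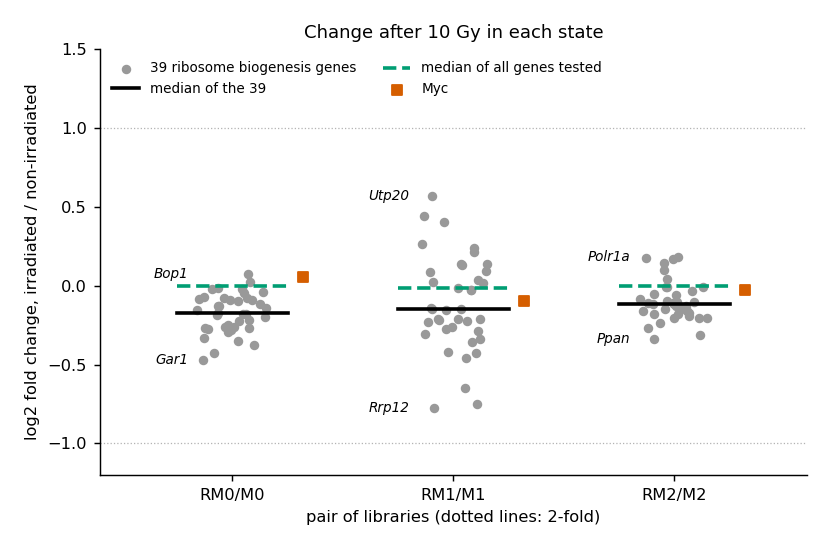
Log2 fold change of each irradiated library over its non-irradiated counterpart (y axis) in the 3 states (x axis), for the 39 ribosome biogenesis genes (grey points, with the lowest and highest named), their median (black bar), the median of all genes tested (green dashes) and Myc (orange squares). Medians are -0.17, -0.15 and -0.12 from left to right; the points spread most in RM1/M1.

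In the M1 state the members spread most after irradiation. Of all genes, 5.34% reached 2-fold in RM1/M1, also more than the 1.54% in RM0/M0 and 1.97% in RM2/M2. Among the members RM1/M1 ran from -0.77 in Rrp12 (-1.01 to -0.54) to 0.57 in Utp20 (0.33 to 0.82). In that pair 14 genes were above 0 and 25 below, beside 48.7% and 51.3% of all genes. Noc4l, at -0.75, and Nhp2, at -0.65, stood with Rrp12, and Gnl3, at 0.44, and Heatr1, at 0.41, with Utp20. Counting intervals of 6 genes lay above 0 and of 19 below, with the share of all genes not given here. The difference between states was not tested.

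The spread moved with the base composition of the transcripts. Among the 17 genes with a GC content under 50% in the longest transcript, the median RM1/M1 change was 0.09 and 11 were above 0, whereas among the 22 of higher GC content it was -0.24 and 3 were above 0. All genes showed the same difference, at 0.14 and -0.16. After the trend of all genes with GC content was removed, the medians were -0.15 and -0.10, and the range narrowed slightly, from -0.61 to 0.46. The part of GC content in the changes of single genes was not tested.

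**Figure D5:**
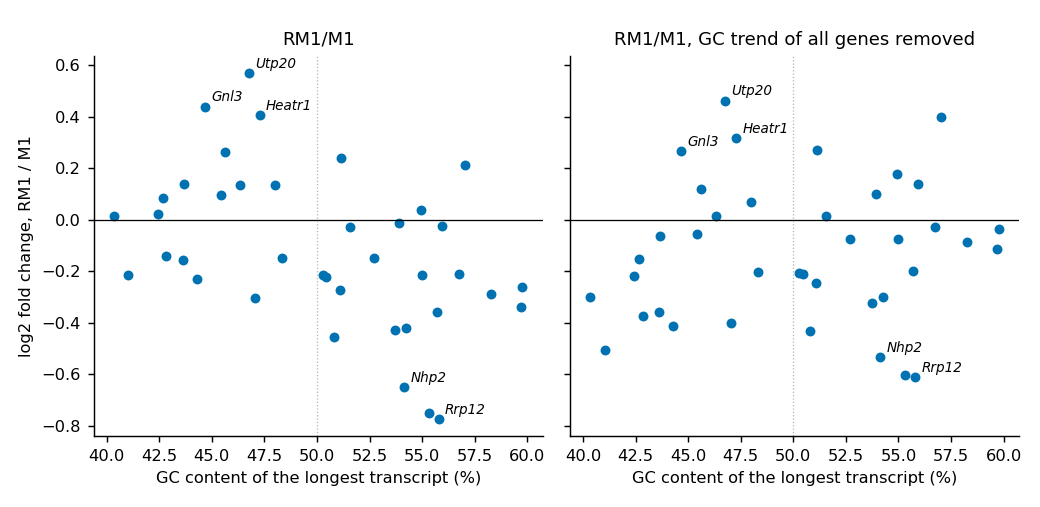
RM1/M1 log2 fold change (y axis) of the 39 ribosome biogenesis genes against the GC content of their longest transcript (x axis, %), as measured (left) and after removing the trend of all genes (right); the dotted line marks 50%. On the left the points fall from left to right; on the right Utp20 (0.46) is still the highest point and Rrp12 (-0.61) the lowest.

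M2 polarization left the members close to M0. In the M2 term 0 of the 40 passed the test, where 0.19% of all genes did. DESeq2 called 0 and gave 1 of the 39 at an unadjusted p under 0.05, beside 5.32% of all genes. By edgeR 3 of the 39 (7.69%) were at that level, beside 10.1% of all genes. The 3 genes were Nop58 (0.34, edgeR adjusted p = 0.459), Dkc1 (0.32, edgeR adjusted p = 0.467) and Gnl3 (0.36, edgeR adjusted p = 0.489). They were called higher in the fits without M1 or without RM1, where 6.71% and 6.69% of all genes were called higher, and Gnl3 in the fit without M0, where 1.46% were. Myc had an M2 term of 0.03 (SE 0.12, edgeR adjusted p = 0.935).

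No member was 2-fold apart in M2/M0, against a background of 1.44%, or in RM2/RM0, against 2.61%. Median changes of the 39 genes were -0.04 and 0.05, the former at 0.02 with library totals. In RM2/RM0 the values of Gnl3 (0.58), Nop58 (0.48) and Dkc1 (0.39) were the positive end, and that of Bop1 (-0.33) the negative end. M1/M0 and M2/M0 share the M0 library, and RM1/RM0 and RM2/RM0 share RM0.

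Myc is 1 gene of a network, and some of its other genes also moved in M1 macrophages. Of 13 network genes sought beside Myc, 11 had enough reads for the test, and Mycl and Mlxipl had at most 3 reads in any library. In the M1 term 4 rose and 2 fell, beside 23.3% of all genes called higher and 24.3% called lower. Mycn had 8227 reads in M0, 7095 in M2, 7606 in RM0 and 5723 in RM2, against 2892 in M1 and 2726 in RM1, with a term of -1.17 (SE 0.13, edgeR adjusted p = 5.07e-05). Mxd1 had 427, 442, 677 and 536 reads, against 2382 in M1 and 3319 in RM1, with a term of 2.71 (SE 0.14, edgeR adjusted p = 4.66e-07), a 6.53-fold higher level. Mycn thus fell and the repressor Mxd1 rose in the libraries in which Myc was higher.

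Per kilobase of the longest transcript, the level of Mycn was 155 scaled CPM in M0 and that of Myc 20.5, and in M1 they were 73.1 and 31.4. By the same per-length measure Mxd1 was at 4.61 in M0 and 34.5 in M1, and at 7.40 in RM0 and 42.7 in RM1. Mycn therefore stayed above Myc in each of the 6 libraries, while Mxd1 was below Myc in M0, M2, RM0 and RM2 and above it in M1 and RM1. The 39 genes had 11.7, 13.7, 11.0 and 16.1 reads for each Mycn read in M0, M2, RM0 and RM2, and 14.7 in M1 and 16.5 in RM1. That is a far narrower range than for Myc, but Mycn was lower in M1 and RM1, as were the 39 genes together. In the M1 term 24.3% of all genes were called lower, and whether the members follow Mycn was not tested.

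The other network genes had smaller M1 terms. Mlx (0.66), Mlxip (0.64) and Zbtb17 (0.38) rose, Mlx and Mlxip being partners in nutrient sensing and Zbtb17 encoding Miz-1, a Myc-binding repressor partner. Mga, which recruits Max to repressive complexes, fell by 0.40 (edgeR adjusted p = 0.0474), with -0.71 in M1/M0 but -0.10 (-0.24 to 0.03) in RM1/RM0. Max, at -0.04 (edgeR adjusted p = 0.857), did not pass the test, nor did Mnt (0.06), Mxi1 (0.10), Mxd4 (0.43) or Mxd3 (0.94). In the irradiation and M2 terms 0 network genes were called by edgeR or DESeq2. At an unadjusted p under 0.05 there were 2 and 2 of 11 by edgeR, where all genes gave 14.7% and 10.1%. DESeq2 gave 2 and 2, where all genes gave 9.05% and 5.32%.

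Other genes of the same pathways gave counts of the same direction in M1 macrophages. Of 14 further Pol I genes 8 fell and 2 rose (median -0.63): Cd3eap, a Pol I subunit, fell by 1.65 and Taf1c, of the promoter selectivity factor, by 1.43, while Taf1d of that factor rose by 1.34. Of 35 further small subunit factors 19 fell and 0 rose (median -0.46), with Nol6 at -2.09, Nat10 at -1.89 and Imp4 at -1.89. Of 36 further large subunit factors 27 fell and 3 rose (median -0.51), with Mdn1 at -2.64, Rrp15 at -1.37 and Wdr18 at -1.18. The background was 24.3% lower and 23.3% higher, as above.

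Known Myc targets outside the ribosome behaved in a like way. Of 29 such genes 19 fell and 0 rose in the M1 term (median -0.59), with Tfap4, a transcription factor, at -2.48, Apex1, a DNA repair enzyme, at -1.95, and Gart, of purine synthesis, at -1.83. Not all moved: Odc1, which makes polyamines and is a classic target, had a term of 0.01 (edgeR adjusted p = 0.968). Of 5 genes of the ribosomal stress response that could be tested, Cdkn1a, the cell cycle inhibitor p21, rose by 0.90, Rpl11 rose by 0.39 and Trp53 fell by 0.85. In the irradiation and M2 terms 0 genes of these 5 lists were called by edgeR, and DESeq2 called 1 gene, Mdm2, for irradiation. At an unadjusted p under 0.05 there were 19 and 7 of 119 by edgeR, where all genes gave 14.7% and 10.1%. DESeq2 gave 12 and 3 of 119, where all genes gave 9.05% and 5.32%.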

How the data were processed

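RNA-seq of 6 libraries of RAW264.7 macrophages was deposited by the authors as counts of reads per gene, 1 table per library. The submitters' processing notes name Trimmomatic 0.36, HISAT2 2.2.1 and HTSeq 0.11.3 with mouse build mm10; strand use and the treatment of reads that fit several genes were not given in the sources used here. Positions listed beside the counts cover under 90% of the RefSeq gene in 9 members, so the counted model may differ there. These are Noc2l (4.61%), Tsr1 (17.81%), Ncl (20.93%), Nop58 (22.29%), Nop56 (23.41%), Wdr43 (38.1%), Gnl3 (41.95%), Bop1 (43.19%) and Wdr12 (79.71%).

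Counts were scaled by TMM in edgeR 4.0.16 (R 4.3.3) on genes that reached 10 counts in 3 or more libraries. Log2 fold changes between libraries used a prior count of 2 and exact (Clopper-Pearson) 95% intervals, which cover counting error only, and a call needed 2-fold and at least 10 counts in 1 of the libraries. The test was the edgeR quasi-likelihood fit with state and irradiation as terms (11574 genes, 2 residual degrees of freedom), with Benjamini-Hochberg adjusted p under 0.05; it assumes the same irradiation effect in each state. The SE was derived from the F statistic. The fit was tested on simulated data. Alternatives were DESeq2 1.42.0, other scalings, filters, prior counts and folds, removal of the GC trend, and leaving out each library. Promoters and gene positions came from RefSeq (GRCm38.p6), and transcript GC content from GENCODE.

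Members, role groups and gene lists were chosen with earlier results of these data known. The rule for named genes was: counts in all libraries for Myc, for members at 2-fold in any pair and for the most abundant member of each role group, terms for the others, the Myc network in full, and up to 3 called genes with the largest change in each other list. No symbol was guessed, and 1 macrophage marker was found under its older symbol.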

Additional observations from a re-analysis of the deposited data

Results flagged for a closer look

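Some members moved in opposite directions after irradiation in different states, with counting intervals that did not reach 0 on either side. There is 1 library per condition, these differences between states were not tested, and each rests on the libraries named. The value given is the difference between the pair of log2 fold changes.

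Gnl3 differed most, by 0.814 between RM1/M1 (0.44) and RM0/M0 (-0.37). Its 193 reads in M1 were its lowest count. Polr1a differed by 0.459 between RM2/M2 (0.18) and RM1/M1 (-0.27). Ddx18 was at 0.13 in RM1/M1, which differed by 0.395 from RM0/M0 (-0.26) and by 0.237 from RM2/M2 (-0.10). Ddx21 differed by 0.278 between RM1/M1 (0.13) and RM0/M0 (-0.14). Npm1 differed by 0.259 between RM2/M2 (0.14) and RM0/M0 (-0.12). Nop14 was at 0.10 in RM2/M2, which differed by 0.259 from RM0/M0 (-0.16) and by 0.252 from RM1/M1 (-0.15). All of these were under 2-fold in each pair.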

How the results depend on the processing

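With 1 library per condition, the spread between cultures was not measured, and the additive fit takes it from the agreement of the states. No paired analysis was possible because the labels give 1 library per condition and no shared replicate numbers. Depth was ample for the members, whose lowest count was 129.

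Library totals in place of TMM shifted the median of all genes by -0.46 in M1/M0, -0.25 in RM1/RM0 and 0.13 in RM1/M1. Under them 32 of the 39 genes were called lower in M1/M0, with a median of -1.52, and 28 in RM1/RM0, with a median of -1.21. Myc was then at 0.173 in M1/M0, 0.214 in RM1/RM0 and 0.0467 in RM1/M1, and its M1 term of 0.194 did not pass the test, so that 0 members were called higher, while all 39 genes were called lower in that term. A fold of 1.5 gave 32 genes lower in M1/M0, 32 in RM1/RM0 and 3 in RM1/M1. The share of all genes called between libraries, with library totals or at 1.5-fold, is not given here. Whether these counts between libraries set the members apart from other genes therefore cannot be told here. Leaving out each library in turn gave 0 to 1 members lower in the irradiation term and 0 to 3 higher in the M2 term.

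With the GC trend removed, small changes reversed: Bop1 in RM2/M2 (0.0164), and in RM2/RM0 Fbl (0.104), Ddx21 (-0.0504), Rrp12 (0.0236), Noc2l (0.04) and Npm1 (-0.0551). The cause was not tested. Without the 9 members with partly listed positions, or the 9 with shared or overlapping sequence, both settings chosen after seeing the data, the M1/M0 median was -1.08 or -1.09. Over all alternatives to the main comparisons, 313 values stayed close to the reported one, 18 moved and 1 lost its call.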

Other observations

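Genes that respond to p53, the damage-induced transcription factor, differed between states after irradiation. Mdm2, which encodes the main inhibitor of p53, went from 3206 reads in M0 to 3846 in RM0, from 1629 in M1 to 3501 in RM1 and from 3673 in M2 to 5344 in RM2. Its log2 changes were 0.28 (0.21 to 0.35), 0.93 (0.85 to 1.02) and 0.57 (0.51 to 0.63) in RM0/M0, RM1/M1 and RM2/M2, and its irradiation term of 0.59 did not pass the test (edgeR adjusted p = 0.0714), although DESeq2 called it. Cdkn1a, also a p53 target, had its highest value in the M0 state instead, at 0.40 in RM0/M0, 0.11 in RM1/M1 and 0.06 in RM2/M2, with a term of 0.19 (edgeR adjusted p = 0.472). The differences between states were not tested.

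Mxd1, already higher in M1 macrophages, had positive values after irradiation in all 3 states: 0.68 (0.51 to 0.86) in RM0/M0, 0.31 (0.23 to 0.38) in RM1/M1 and 0.31 (0.13 to 0.50) in RM2/M2. Its irradiation term was 0.43 (edgeR adjusted p = 0.141), higher in 3 of 3 pairs. Mycn had negative values in the same pairs, at -0.10, -0.26 and -0.28, with a term of -0.21 (edgeR adjusted p = 0.362).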
